A study of Homo sapiens with 18 samples.

Results

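The data described here are 6 of the 18 RNA sequencing libraries of the study, the 3 titled N+PD30 and the 3 titled Nutlin, chosen by their titles. SJSA-1, an osteosarcoma cell line with amplified MDM2 and CDK4 genes, was used throughout. The Nutlin libraries came from cells given 20 µM Nutlin for 6 h, and the N+PD30 libraries from cells that also received 10 µM PD0332991 over 30 h, so that both groups share the Nutlin treatment and differ in PD0332991. DMSO and PD30 libraries (vehicle, and 10 µM PD0332991 for 30 h without Nutlin), 3 of each, are set beside them where the levels without Nutlin are needed. Nutlin keeps MDM2 from binding p53, and PD0332991 (Palbociclib) inhibits the cell cycle kinases CDK4 and CDK6. The paper describes the cells as pretreated with PD0332991, so the inhibitor was present before Nutlin was added. The comparison asks how cells given Nutlin under continuous PD0332991 differed from cells given Nutlin alone, here in gene classes other than the cell cycle.

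Several of these classes are each controlled by a few factors. When sterols in the endoplasmic reticulum run low, SCAP escorts SREBP factors to the Golgi, where they are cut free to switch on the enzymes of cholesterol and fatty acid synthesis, while oxysterols that accumulate act through LXR receptors on cholesterol exporters. ATF4 answers amino acid shortage and other stresses, HSF1 answers unfolded protein in the cytosol through chaperone genes, and TFEB and TFE3 control lysosomal genes. CDK4/6 inhibition stops cells before DNA replication, so the genes of replication and division were put on a list of their own, which shares 1 gene each with the nuclear pore and p53 lists and 3 with the DNA methylation and Polycomb list below.

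The deposited values are read counts per gene. The totals were 27137933 to 30515707 reads in Nutlin and 12704845, 29762195 and 20652310 reads in N+PD30 replicates 1, 2 and 3, so that N+PD30 replicate 1 was the shallowest. Log2 CPM (reads of a gene scaled to a common library size) of libraries of 1 group correlated with r of 0.987 to 0.9909 in Nutlin and 0.9775 to 0.988 in N+PD30. MDM2 alone took 1.97% to 2.82% of the Nutlin reads and 0.62% to 0.79% of the N+PD30 reads. Of 10 osteoblast lineage markers, 3 (SP7, IBSP and BGLAP) were under 1 CPM in all 6 libraries. The summed level of the 10 was 4579 to 5678 CPM in Nutlin and 4789 to 6515 CPM in N+PD30. Most of it came from COL1A1, SPARC and COL1A2, with means of 2568, 1867 and 478 CPM in Nutlin. The summed level of 5 epithelial markers was 163 to 195 CPM and 107 to 189 CPM, and 4 of 5 blood markers were under 1 CPM. In bulk RNA, a change in the share of cells in a state cannot be told apart from a change of RNA per cell.

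Of 15721 genes tested with edgeR's quasi-likelihood test, 3823 (24.3%) were higher and 3888 (24.7%) were lower in N+PD30 at a Benjamini-Hochberg adjusted p under 0.05. At this threshold with more than a 2-fold change, 1326 (8.43%) were higher and 2184 (13.9%) were lower. Of 404 tested genes on the cell cycle list, 357 were lower and 10 higher by adjusted p alone, and 330 and 7 were so past 2-fold as well. Outside it, 15317 genes were tested, of which 3813 (24.9%) were higher and 3531 (23.1%) were lower, with 1319 (8.61%) and 1854 (12.1%) past 2-fold, and the median log2 fold change was 0.02. All fold changes below are log2, N+PD30 minus Nutlin, with their standard error, and all adjusted p-values are from this test unless another is named. Genes named for the size of their change were picked only where the groups did not overlap. For them a lack of overlap is therefore no added result. Anchor genes of each pathway were named without this rule.

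Other genes were grouped into 34 lists by function. The lists were compiled with earlier results of these data known, so contrasts with all genes are descriptions and not tests. Each list is read against these shares and against the median of all genes tested, which was 0.00. Cholesterol synthesis had the highest median, 1.83, followed by fatty acid and phospholipid synthesis, sterol uptake and control, and the ATF4-type genes. Nuclear pore and transport genes, splicing factors and chaperones had the lowest medians, between -0.80 and -0.59. Oxidative phosphorylation stood at 0.07, with 1 of its 65 tested members higher and 1 lower, but without N+PD30 replicate 3 its median was 0.19 and 13 members were higher, and without N+PD30 replicate 1 its median was -0.07.

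Cholesterol synthesis genes were higher with PD0332991. Of the 22 enzymes on the list, all tested, 19 rose and 1 fell, against 24.3% and 24.7% of all genes, and 18 of the rises exceeded 2-fold. MVD (mevalonate diphosphate decarboxylase, an early step of the pathway, chr16:88718343-88729569 on the minus strand, GRCh37) measured 13.3, 22.6 and 20.3 CPM in Nutlin replicates 1 to 3 and 116, 230.0 and 208 CPM in N+PD30, a rise of 3.30 ± 0.27, adjusted p = 5.5e-06 by edgeR. Each N+PD30 library was above each Nutlin library, and replicate 1 was the lowest of the N+PD30 libraries.

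DHCR7 (chr11:71139239-71163914, minus strand), which makes cholesterol in the last step of 1 branch, was at 31.3, 41.4 and 40.3 CPM in Nutlin and 164, 328 and 326 CPM in N+PD30 (2.85 ± 0.25, adjusted p = 8.43e-06 in edgeR). MSMO1 (chr4:166248819-166264316, plus strand), an oxidase that removes methyl groups from the sterol ring, was at 40.3, 34.6 and 35.02 CPM and 90.9, 283 and 364 CPM (2.74 ± 0.39, adjusted p = 0.00023 in edgeR). Both genes again had replicate 1 closest to the Nutlin level. That no library of one group reached the other was required by the rule that picked them. SQLE, squalene epoxidase, went from 36.7, 38.4 and 38.1 CPM to 101.3, 258 and 300.4 CPM and rose by 2.53 ± 0.32. The Nutlin libraries lay close together for SQLE, while replicate 1 was well below the other N+PD30 libraries.

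The exceptions on the list were LBR, GGPS1 and PMVK. LBR, a sterol reductase that is also a lamin B receptor of the nuclear envelope, was lower, at 51.4, 44.6 and 47.6 CPM in Nutlin against 12.9, 21.8 and 28.9 CPM (-1.17 ± 0.23, adjusted p = 0.00163 in edgeR). GGPS1, which makes the geranylgeranyl group for protein anchors, and PMVK, the phosphomevalonate kinase, did not pass the test, at 0.08 and 0.34 (both are named after their values were seen). In all 19 genes that rose, N+PD30 replicate 1 had the lowest level of its group. Its median rise over the list was 0.95 against the Nutlin mean, compared with 1.97 and 2.18 in replicates 2 and 3. Without replicate 1, 19 members rose, 1 fell and the median was 2.14. What set replicate 1 apart was not tested.

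Promoters of 3 genes with the largest rises on the list are shown because their start regions share the NF-Y box CCAAT, a site that NF-Y occupies beside SREBP in many sterol genes. The sequences are RefSeq windows on GRCh38.p14 and cover the 250 bases upstream of a listed start, 5′ to 3′ on the strand of the gene, with each CCAAT on either strand in capitals. MVD lies at chr16:88663092-88663341, DHCR7 at chr11:71448394-71448643 (both on the minus strand) and MSMO1 at chr4:165327419-165327668 (plus strand).
MVD: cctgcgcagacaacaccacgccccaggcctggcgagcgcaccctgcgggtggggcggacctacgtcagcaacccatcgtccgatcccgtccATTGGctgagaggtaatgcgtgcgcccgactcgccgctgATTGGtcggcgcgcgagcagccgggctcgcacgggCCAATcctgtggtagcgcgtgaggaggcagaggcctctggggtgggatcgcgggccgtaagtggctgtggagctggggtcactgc
DHCR7: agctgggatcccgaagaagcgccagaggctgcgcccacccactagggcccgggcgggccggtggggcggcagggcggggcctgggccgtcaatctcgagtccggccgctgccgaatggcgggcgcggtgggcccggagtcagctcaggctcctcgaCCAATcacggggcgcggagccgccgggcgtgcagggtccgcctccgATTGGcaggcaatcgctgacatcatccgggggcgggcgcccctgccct
MSMO1: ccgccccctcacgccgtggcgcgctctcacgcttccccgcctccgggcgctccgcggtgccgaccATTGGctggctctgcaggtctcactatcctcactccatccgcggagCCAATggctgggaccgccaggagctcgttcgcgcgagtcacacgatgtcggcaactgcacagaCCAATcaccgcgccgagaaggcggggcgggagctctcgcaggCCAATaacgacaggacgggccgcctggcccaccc
The box occurs 3 times upstream of MVD, from 159, 120 and 85 bases before the start, 2 times upstream of DHCR7 and 4 times upstream of MSMO1. Over the list, 17 of 22 genes had a window, and 16 of their 24 windows (66.7%), from 14 genes, held the box, against 34.6% of 35116 promoter windows of all genes. The box was not particular to the genes that rose. It was in 29 of 37 windows (78.4%) of the unfolded protein response list, where 8 of 31 tested members rose and 8 fell. No other list had a higher share than cholesterol synthesis. Windows reach from 250 bases before to 50 after a start, and a gene with several starts has several. DHCR7 has 2 windows, of which only 1 holds the box, and that one is shown. The sterol element TCACNCCAC was in none of the 24 windows and in 1.13% of all windows. A match of letters is a description of the window and not a measured site.

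The genes that sense and import sterols moved with the enzymes. Of 20 tested members of the sterol uptake, transport and control list, which has 22, 13 rose and 3 fell, with a median of 0.70. The 2 others had too few reads to be tested. INSIG1, which holds SREBP back in the endoplasmic reticulum and is itself an SREBP target, was at 38.4, 42.3 and 45.5 CPM in Nutlin and 67.6, 192 and 237 CPM in N+PD30 (1.97 ± 0.35, adjusted p = 0.000887 in edgeR). TMEM97, a sterol-regulated membrane protein, rose by 1.70 ± 0.32. Neither gene had an overlap between the groups, as was required of genes picked by the size of their change. Replicate 1 was the lowest N+PD30 library in both.

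SREBF2, the gene of the SREBP form that drives cholesterol synthesis, was at 149, 183 and 170.4 CPM in Nutlin and 335, 422 and 436 CPM in N+PD30, a rise of 1.24 ± 0.14, adjusted p = 5.18e-05 in edgeR. SREBF1 was at 44.9, 66.8 and 63.4 CPM and 111, 78.1 and 75.1 CPM (0.58 ± 0.19, adjusted p = 0.0251 in edgeR), and here replicate 1 was the highest of its group. The call for SREBF1 was lost without Nutlin replicate 1 (adjusted p = 0.0857) and without N+PD30 replicate 1 (adjusted p = 0.0736) in the same edgeR test. SREBF2 was the only gene of its list with the sterol element in a promoter window. The 150 bases upstream of its start on GRCh38.p14 (chr22:41832955-41833104, plus strand) are shown with the element, which begins 133 bases before the start, in capitals.
SREBF2: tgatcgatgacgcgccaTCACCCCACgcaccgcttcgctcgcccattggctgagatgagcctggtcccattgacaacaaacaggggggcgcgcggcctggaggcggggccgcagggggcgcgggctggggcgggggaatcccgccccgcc

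The 3 members that fell are known targets of LXR receptors that lower the sterol content of cells. ABCA1, a cholesterol exporter, was at 180.0, 146 and 155 CPM in Nutlin and 75.4, 34.5 and 23.7 CPM in N+PD30 (-1.87 ± 0.33, adjusted p = 0.000994 in edgeR). ABCG1, a second exporter, was at 16.1, 16.6 and 8.90 CPM and 8.19, 2.19 and 2.11 CPM (-1.85 ± 0.46, adjusted p = 0.00649 in edgeR). MYLIP, a ubiquitin ligase of lipoprotein uptake, was at 15.2, 12.6 and 10.99 CPM and 7.94, 3.57 and 2.74 CPM (-1.52 ± 0.33, adjusted p = 0.00305 in edgeR). In each of them N+PD30 replicate 1 was the highest of its group, and therefore nearest to Nutlin. In ABCG1 the lowest Nutlin library was only just above it. Without it the fold changes of ABCA1 and ABCG1 were -2.46 and -2.69.

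**Figure D1:**
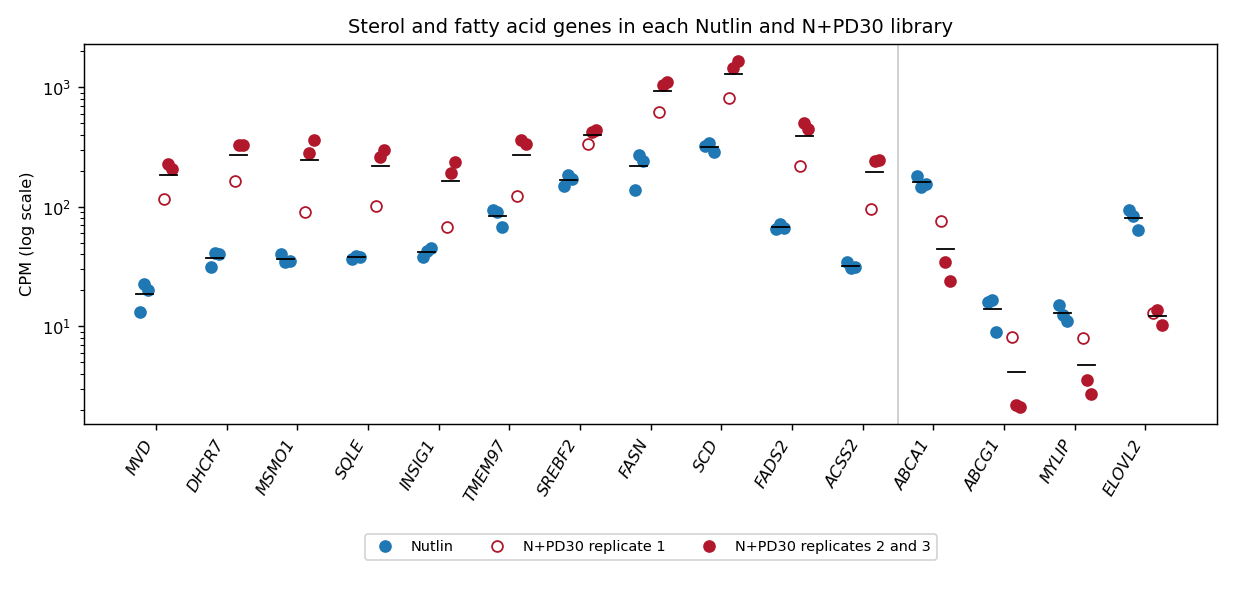
CPM (y axis, log scale) of sterol and fatty acid genes in the 3 Nutlin libraries (blue) and the 3 N+PD30 libraries (red, replicate 1 as an open circle), with the group mean as a black line. Genes left of the grey line rose and genes right of it fell. The open circle is the N+PD30 library closest to the Nutlin libraries for every gene shown except ELOVL2.

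The same direction was seen in fatty acid and phospholipid synthesis, where 21 of 33 tested members rose and 2 fell, with a median of 0.72. MLXIPL had too few reads. ACSS2, which turns acetate into acetyl-CoA, was at 34.3, 30.8 and 31.1 CPM in Nutlin and 95.5, 243 and 244 CPM in N+PD30 (2.59 ± 0.30, adjusted p = 5.59e-05 in edgeR). FADS2, a desaturase of polyunsaturated fatty acids, was at 65.2, 71.3 and 65.9 CPM and 217, 503 and 449.6 CPM (2.52 ± 0.26, adjusted p = 2.65e-05 in edgeR). FASN, the fatty acid synthase, was at 137, 272 and 243 CPM and 617, 1051 and 1099 CPM (2.08 ± 0.27, adjusted p = 0.000132 in edgeR). SCD, the stearoyl-CoA desaturase, rose by 2.03 ± 0.23. The groups did not overlap in any of the 4 genes, as was required of those picked by the size of their change. The members that fell were ELOVL2, an elongase of very long polyunsaturated chains, and ACACB, the mitochondrial acetyl-CoA carboxylase (named after its values were seen). ELOVL2 was at 93.4, 83.6 and 64.04 CPM in Nutlin and 12.8, 13.6 and 10.2 CPM in N+PD30, a change of -2.72 ± 0.18, adjusted p = 1.01e-06 in edgeR, with replicate 1 between the other 2 libraries of its group.

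Lysosomal genes were higher, by smaller steps than the sterol genes. Of 52 hydrolases, membrane proteins and their regulators, 34 rose and 3 fell, with a median of 0.49, and 10 of the rises exceeded 2-fold. NEU1, the sialidase, was at 59.2, 72.8 and 78.6 CPM in Nutlin and 233, 255 and 261 CPM in N+PD30 (1.82 ± 0.14, adjusted p = 2.57e-06 in edgeR). IDUA, the iduronidase, was at 1.89, 3.63 and 3.39 CPM and 11.9, 6.68 and 8.22 CPM (1.56 ± 0.29, adjusted p = 0.00113 in edgeR), and SGSH, the sulfamidase, rose by 1.54 ± 0.17. N+PD30 replicate 1 was lowest of its group in NEU1 and highest in IDUA and SGSH. It was the lowest library in 7 of the 34 genes that rose, and the median rise in replicates 1, 2 and 3 was 0.61, 0.49 and 0.49. CTSC, the cathepsin that activates serine proteases of granules, went the other way, from 12.9, 13.5 and 11.1 CPM to 5.21, 3.43 and 7.02 CPM (-1.28 ± 0.24, adjusted p = 0.00125 in edgeR).

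Of the 18 subunits of the vacuolar ATPase, the proton pump of lysosomes, 13 rose and none fell. Their fold changes ran from -0.58 to 0.86 with a median of 0.56, and none exceeded 2-fold. Upper-quartile scaling and a higher count filter each made 1 subunit lower. TFEB, the regulator, was at 0.790, 0.748 and 0.484 CPM in Nutlin and 1.66, 2.02 and 1.11 CPM in N+PD30 (1.24 ± 0.33, adjusted p = 0.0095 in edgeR), low levels throughout, and its call was lost without N+PD30 replicate 2 (adjusted p = 0.0644 in edgeR). The CLEAR-type letters TCACGTGA, which TFEB and its relatives bind, were in 7 of 54 windows (13%) of the lysosomal list, from 6 of 34 genes with a window, in 2 of 16 windows (12.5%) of the vacuolar ATPase list, and in 0.98% of all windows. GAA (acid alpha-glucosidase, 0.99 ± 0.17) and MCOLN1 (a lysosomal calcium channel, 1.08 ± 0.18) each held 2 of them, beginning 77 and 32 bases (GAA) and 42 and 15 bases (MCOLN1) before the start, and both were picked for that after their values were seen. The 150 bases upstream of their starts on GRCh38.p14 (chr17:80101431-80101580 and chr19:7522474-7522623, both plus strand) are given with TCACGTGA in capitals.
GAA: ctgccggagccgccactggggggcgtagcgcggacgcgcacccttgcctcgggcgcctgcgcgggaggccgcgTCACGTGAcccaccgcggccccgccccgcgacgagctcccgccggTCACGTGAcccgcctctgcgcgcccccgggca
MCOLN1: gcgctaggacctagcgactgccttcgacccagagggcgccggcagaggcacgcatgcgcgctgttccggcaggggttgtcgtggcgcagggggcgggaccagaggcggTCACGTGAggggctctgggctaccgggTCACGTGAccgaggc

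In the autophagy list 19 of 40 members rose and 1 fell, with a median of 0.36. WIPI1, which reads the lipid mark on the forming membrane, was at 34.8, 33.7 and 32.4 CPM in Nutlin and 121, 125 and 115 CPM in N+PD30 (1.83 ± 0.12, adjusted p = 7.04e-07 in edgeR). TP53INP2 rose by 1.72 ± 0.18, and GABARAPL1, a protein that is conjugated to autophagosomes, by 1.58 ± 0.17. The N+PD30 libraries of WIPI1 lay close together and far above the Nutlin libraries. SQSTM1, the cargo receptor p62, was at 560.2, 795 and 962 CPM and 682, 699.6 and 639.5 CPM, and its change of -0.21 ± 0.18 did not pass the test.

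Among genes that ATF4 controls in amino acid shortage, 22 of 37 rose and 2 fell, with a median of 0.67. ATF4 itself (chr22:39915700-39918688, plus strand, GRCh37) was at 111, 108 and 113 CPM in Nutlin and 318, 396 and 459.7 CPM in N+PD30 (1.81 ± 0.15, adjusted p = 4.33e-06 in edgeR). TRIB3 (chr20:343479-378203, plus strand), a pseudokinase that restrains AKT and ATF4, was at 7.93, 10.5 and 14.2 CPM and 89.1, 200.3 and 285 CPM (4.13 ± 0.38, adjusted p = 1.32e-05 in edgeR). DDIT3, the stress factor CHOP, was at 223, 184 and 243 CPM and 471, 499 and 562 CPM (1.23 ± 0.14, adjusted p = 5.15e-05 in edgeR). The groups were apart in all 3, and TRIB3 varied most within N+PD30, with replicate 1 lowest.

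CHAC1, which breaks down glutathione, was at 1.13, 1.28 and 1.75 CPM in Nutlin and 6.87, 15.05 and 20.7 CPM in N+PD30 (3.36 ± 0.37, adjusted p = 4.09e-05 in edgeR), and SLC6A9, a glycine transporter, rose by 2.34 ± 0.40. The rise did not extend to every member. ASNS, the asparagine synthetase, was at 44.2, 51.7 and 50.5 CPM and 34.8, 41.03 and 44.3 CPM, and its change of -0.29 ± 0.13 missed the threshold (adjusted p = 0.0908 in edgeR, and 0.0368 to 0.0473 under 3 other settings). The members that fell were PHGDH and PSAT1 (-0.75 and -0.54), the first steps of serine synthesis, named after their values were seen. N+PD30 replicate 1 was the lowest of its group in 18 of the 22 genes that rose, and without it 24 rose and the median was 0.77.

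Part of these changes differed with and without Nutlin. Without Nutlin, 14 of 37 members were higher and 4 lower in PD30 than in DMSO, with a median of 0.18, against 22.9% and 25.4% of all 15125 genes tested in that comparison. The interaction term over 12 libraries was positive for 10 of 37 members and negative for 1 at an adjusted p under 0.05, against 12.8% and 7.03% of all 16113 genes tested for it. For ATF4 it was 1.37 ± 0.22 (adjusted p = 0.00109 in edgeR). The DMSO libraries were at 226, 254 and 186 CPM and the PD30 libraries at 251, 295 and 367 CPM, so that the Nutlin libraries were the lowest of the 4 groups. For TRIB3 the term was 2.83 ± 0.54 (adjusted p = 0.00308 in edgeR), with 38.6, 63.1 and 35.1 CPM in DMSO and 78.96, 96.8 and 164 CPM in PD30.

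The ATF4-type letters TGATGNAA, the core of the C/EBP-ATF response element, were in 9 of 46 windows (19.6%) of this list, from 9 of 29 genes, and in 3.62% of all windows. They were not particular to it. The cytosolic aminoacyl-tRNA synthetases, with a median of 0.16, held them in 5 of 15 windows (33.3%). ASNS has 2 windows, of which 1 holds the letters. CHAC1 rose and ASNS did not pass the test, and both carry the letters, so both are shown, with the element in capitals (in CHAC1 it is on the opposite strand). For CHAC1 the stretch on GRCh38.p14 covers 150 bases beginning 250 bases upstream (chr15:40953221-40953370, plus strand), and for ASNS from 150 bases upstream to the start (chr7:97872409-97872558, minus strand).
CHAC1: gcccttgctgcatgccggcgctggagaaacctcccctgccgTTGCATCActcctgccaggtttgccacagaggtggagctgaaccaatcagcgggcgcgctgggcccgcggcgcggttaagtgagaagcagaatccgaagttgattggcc
ASNS: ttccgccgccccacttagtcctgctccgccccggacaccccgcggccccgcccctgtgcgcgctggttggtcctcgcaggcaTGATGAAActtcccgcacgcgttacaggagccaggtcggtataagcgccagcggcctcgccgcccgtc

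**Figure D2:**
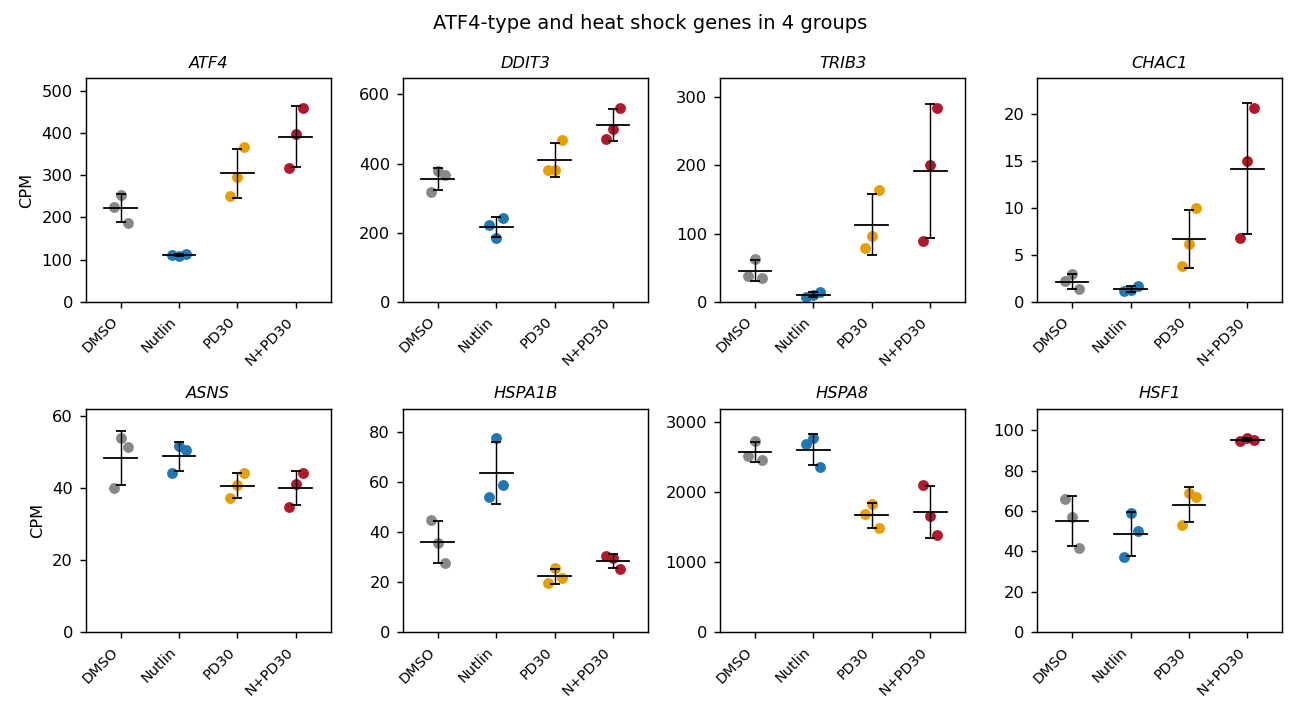
CPM (y axes, from 0) of ATF4-type genes and heat shock genes in the 4 groups (x axes), 1 point per library, with the mean as a line and the SD as error bars (n = 3). ATF4, DDIT3, TRIB3 and CHAC1 are highest in N+PD30, ASNS overlaps between Nutlin and N+PD30, and HSPA1B is highest in Nutlin. HSPA8 is lower in PD30 and N+PD30 than in DMSO and Nutlin, and HSF1 is highest in N+PD30.

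In the unfolded protein response of the endoplasmic reticulum, 8 of 31 tested members rose and 8 fell, 25.8% each and near the shares of all genes (24.3% and 24.7%), with a median of 0.09. DERL3 had too few reads. HERPUD1, a membrane protein of the degradation machinery, was at 40.9, 42.6 and 39.2 CPM in Nutlin and 91.03, 88.99 and 89.01 CPM in N+PD30 (1.12 ± 0.11, adjusted p = 2.19e-05 in edgeR). EIF2AK3, the stress sensor kinase PERK, rose by 1.06 ± 0.16, and the factor XBP1 by 0.95 ± 0.13. Among the members that fell were HSP90B1, an HSP90 of the endoplasmic reticulum, and PDIA4, a disulfide isomerase (-0.88 and -0.67, named after their values were seen). HSPA5, the chaperone BiP, was at 1704, 1769 and 1429 CPM and 1355, 1330.3 and 1233 CPM, a change of -0.33 ± 0.13 with an adjusted p of 0.051 in edgeR and from 0.0231 to 0.0495 under 10 other settings. The number of members that fell was 3 without Nutlin replicate 1, 2 without Nutlin replicate 2 and 5 without N+PD30 replicate 2.

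Chaperones of the cytosol were lower. Of 37 members, 28 fell and 1 rose, with a median of -0.59, and 6 of the falls exceeded 2-fold. HSPA8, the constitutive HSC70, was at 2679, 2772 and 2359.7 CPM in Nutlin and 2103, 1657 and 1381 CPM in N+PD30 (-0.61 ± 0.16, adjusted p = 0.0097 in edgeR). HSPA1B, the inducible HSP70, was at 54.2, 77.7 and 58.8 CPM and 30.5, 29.8 and 25.2 CPM (-1.17 ± 0.16, adjusted p = 0.000186 in edgeR). It is nearly identical to HSPA1A (-2.0 ± 0.33), so reads may be split or lost between them, and both values are uncertain. HSPA1L, their neighbour, fell by 1.79. The member that rose was HSF1, the gene of the heat shock factor itself, from 37.1, 58.8 and 49.9 CPM to 94.5, 96.2 and 95.3 CPM (0.96 ± 0.16, adjusted p = 0.000612 in edgeR). The groups of HSF1 did not overlap, and its 3 N+PD30 libraries were within 2 CPM of each other.

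In PD30 against DMSO 19 chaperones were lower and 4 higher, with a median of -0.28, and the interaction term was negative for 5 of 37 members and positive for 1, against 7.03% and 12.8% of all genes. The Nutlin libraries of HSPA1B were above those of DMSO (44.8, 35.6 and 27.8 CPM). The heat shock element, with units GAA, TTC and GAA that have 2 bases between them, was in 8 of 51 windows (15.7%), from 8 of 33 chaperone genes, and in 0.49% of all windows. HSPA8 and HSP90AA1 (-1.06 ± 0.13, the inducible HSP90, picked after its values were seen) are shown with the element in capitals on either strand. The stretches on GRCh38.p14 cover 250 bases upstream of a start of HSPA8 (chr11:123062137-123062386) and 150 bases upstream of a start of HSP90AA1 (chr14:102087045-102087194), both on the minus strand.
HSPA8: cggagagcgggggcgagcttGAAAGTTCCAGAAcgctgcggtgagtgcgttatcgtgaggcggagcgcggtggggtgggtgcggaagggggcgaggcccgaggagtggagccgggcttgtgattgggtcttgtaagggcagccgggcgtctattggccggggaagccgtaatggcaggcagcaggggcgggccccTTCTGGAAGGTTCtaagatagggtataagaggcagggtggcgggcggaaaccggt
HSP90AA1: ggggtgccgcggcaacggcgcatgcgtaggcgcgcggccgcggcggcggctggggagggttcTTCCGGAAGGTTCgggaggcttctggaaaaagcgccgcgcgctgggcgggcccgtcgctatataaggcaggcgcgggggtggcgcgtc

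The NRF2 antioxidant list had 5 of 22 tested members higher and 5 lower, 22.7% each and near the shares of all genes, with a median of -0.05. HMOX1, which breaks down heme, was at 6.80, 10.4 and 9.91 CPM in Nutlin and 17.9, 21.3 and 17.1 CPM in N+PD30 (1.05 ± 0.19, adjusted p = 0.00107 in edgeR), and BLVRB, a biliverdin reductase, rose by 1.02 ± 0.24. NQO1, the quinone reductase, was at 130.1, 213 and 171 CPM and 60.5, 105 and 78.3 CPM (-1.08 ± 0.22, adjusted p = 0.00204 in edgeR), and GCLM, which serves glutathione synthesis, fell by 1.13. NFE2L2, the gene of NRF2, changed by -0.39 ± 0.15 and just missed the threshold (adjusted p = 0.0505 in edgeR), which it passed in 7 other settings. Among metallothioneins 6 of 11 could be tested and 3 fell, of which MT2A, a metal-binding protein, was at 151, 216 and 229 CPM and 71.6, 68.3 and 74.7 CPM (-1.48 ± 0.16, adjusted p = 3.48e-05 in edgeR). Members of this family are close copies, so their counts are uncertain.

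In energy metabolism beyond lipids, single genes changed while the medians of the lists were small. The medians of glycolysis, the pentose phosphate and glycogen list, the TCA cycle and fatty acid oxidation were 0.05, 0.08, 0.04 and 0.08. Each had 4 to 8 members higher (16% to 38.1%) and 2 or 3 lower (6.25% to 12%), against 24.3% and 24.7% of all genes. In glycolysis 5 members were lower without N+PD30 replicate 1 and 1 without replicate 2 of either group. ALDOC, the brain-type aldolase, was at 3.19, 2.95 and 2.83 CPM in Nutlin and 12.8, 23.3 and 21 CPM in N+PD30 (2.67 ± 0.23, adjusted p = 8.05e-06 in edgeR), and SLC2A3, a glucose transporter, rose by 1.08 ± 0.16. TXNIP, which restrains glucose uptake, was at 12.1, 5.59 and 8.72 CPM and 22.3, 15.2 and 30.9 CPM (1.35 ± 0.30, adjusted p = 0.00344 in edgeR). HK2, the hexokinase, and CPT1A, the gate of fatty acid oxidation, did not pass the test, at -0.22 and 0.05.

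Among glycogen genes, PPP1R3B, PPP1R3C and PPP1R3D, which bring protein phosphatase 1 to glycogen, rose by 2.02 ± 0.17, 1.24 ± 0.23 and 2.04 ± 0.22. PPP1R3D was at 3.23, 3.42 and 2.57 CPM in Nutlin and 9.27, 13.7 and 15.04 CPM in N+PD30, with 12.4, 10.8 and 12.3 CPM in DMSO. PYGM, the muscle glycogen phosphorylase, went the other way, from 4.16, 4.34 and 6.11 CPM in Nutlin to 0.745, 0.309 and 0.144 CPM (-3.79 ± 0.40, adjusted p = 3.29e-05 in edgeR). PYGM was at 0.270, 0.346 and 0.282 CPM in DMSO, so that the N+PD30 libraries overlapped the DMSO libraries in both genes.

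PPARGC1A and PPARA, regulators of oxidation, rose by 2.01 ± 0.25 and 1.39 ± 0.14, and ACADS, a short-chain dehydrogenase, by 1.20 ± 0.24. HADH, an enzyme of the same pathway, fell by 1.35, from 56.5, 62.01 and 53.8 CPM to 24.8, 21.8 and 21.4 CPM. IDH1 of the cytosol and IDH2 of the mitochondria, isoforms that catalyse the same reaction, changed in opposite directions. IDH1 was at 101.1, 103 and 80.5 CPM in Nutlin and 167, 261 and 238 CPM in N+PD30 (1.21 ± 0.17, adjusted p = 0.00026 in edgeR), and IDH2 at 19.7, 20.1 and 19.7 CPM and 11.6, 6.75 and 5.14 CPM (-1.38 ± 0.25, adjusted p = 0.00105 in edgeR).

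Besides the chaperones, the lists of RNA processing and nuclear transport had the lowest medians. Of 50 splicing factors and hnRNPs, 34 fell and 1 rose, with a median of -0.78 and 15 falls past 2-fold. SRSF3, an SR protein, was at 327, 284 and 294 CPM in Nutlin and 87.6, 109.8 and 61.3 CPM in N+PD30 (-1.81 ± 0.19, adjusted p = 3.45e-05 in edgeR). HNRNPH1 was at 671, 589 and 598 CPM and 226, 184 and 199 CPM (-1.62 ± 0.13, adjusted p = 4.16e-06 in edgeR), and HNRNPA1 fell by 1.65, with reads that may be lost to its pseudogene copies. The N+PD30 libraries of SRSF3 and HNRNPH1 were all below the lowest Nutlin library.

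Of 39 nuclear pore and transport genes, 31 fell and 2 rose, with a median of -0.80. CSE1L (chr20:47662783-47713497, plus strand, GRCh37), the exporter that recycles importin alpha, was at 339, 318 and 277 CPM in Nutlin and 54.5, 61.8 and 55.7 CPM in N+PD30 (-2.45 ± 0.13, adjusted p = 1.78e-07 in edgeR). The pore proteins NUP210 and NUP107 fell by 2.15 and 1.85. In PD30 against DMSO 43 splicing genes and 32 pore genes were lower and none higher, with medians of -0.72 and -0.89. The interaction term was positive for 3 and negative for 2 splicing genes, and positive for 6 pore genes, against 12.8% positive and 7.03% negative terms over all genes. Ribosome biogenesis had 11 members higher (22.9%) and 9 lower (18.75%) of 48, below the 24.3% and 24.7% of all genes. Its median was 0.04. The counts were 7 and 5 without Nutlin replicate 2, and 8 and 5 without N+PD30 replicate 2.

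Growth regulators did not form a common pattern. The MYC network list had 4 members higher (25%) and 6 lower (37.5%) of 16, against 24.3% and 24.7% of all genes. MYC was at 6.49, 12.4 and 10.7 CPM in Nutlin and 7.20, 7.34 and 8.84 CPM in N+PD30, a change of -0.34 ± 0.23 that did not pass the test, while the DMSO libraries were at 42.4, 34.1 and 32.95 CPM. FOXO3 was at 17.6, 14.3 and 21.1 CPM and 17.3, 22.2 and 29.99 CPM and did not pass either (0.38 ± 0.21). In its list 6 members were higher (25%) and 4 lower (16.7%) of 24. TSC22D3, the glucocorticoid-induced leucine zipper and a FOXO target, was at 10.4, 9.11 and 10.5 CPM in Nutlin and 40.5, 76.99 and 114 CPM in N+PD30 (2.94 ± 0.30, adjusted p = 2.77e-05 in edgeR). BHLHE40, a clock and hypoxia factor, rose by 2.42 ± 0.21 in lists whose medians were 0.07 (clock) and 0.21 (hypoxia).

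The 90 p53 target genes tested divided, with 25 higher (27.8%) and 32 lower (35.6%) and a median of -0.09, against 24.3% and 24.7% of all genes. A similar split was present without Nutlin. In PD30 against DMSO 21 of 87 were higher and 29 lower, with a median of -0.13. The interaction term was positive for 16 of 90 and negative for 12, against 12.8% and 7.03% of all genes. The list was not limited to genes that Nutlin raised in these cells, so its median does not describe those genes as a set. In the paper, most genes that Nutlin induced had lower expression after PD0332991 pretreatment. MDM2 took 1.97% to 2.82% of the reads in Nutlin, 0.62% to 0.79% in N+PD30 and 0.25% to 0.27% in DMSO. INPP5D, the lipid phosphatase SHIP1, was at 52.99, 59.99 and 50.6 CPM in Nutlin and 7.94, 9.26 and 8.70 CPM in N+PD30 (-2.66 ± 0.14, adjusted p = 1.52e-07 in edgeR), against 2.19, 1.77 and 1.32 CPM in DMSO. PADI4, which converts arginine of histones to citrulline, fell by 2.86, and TP73, the p53 relative, by 4.68. On the other side, ORAI3, a calcium channel subunit, was at 9.38, 9.79 and 10.99 CPM and 49.2, 53.96 and 51.9 CPM (2.35 ± 0.13, adjusted p = 2.69e-07 in edgeR), LIF, a cytokine, rose by 1.63 ± 0.19, and PANK1, a kinase of coenzyme A synthesis, by 1.45 ± 0.22. INPP5D in N+PD30 therefore stood between its DMSO and Nutlin levels, whereas ORAI3 was higher than in any other group (7.44, 6.78 and 6.02 CPM in DMSO and 27.7, 26.6 and 29.2 CPM in PD30). TP73 was at 16.1, 13.5 and 11.8 CPM in DMSO and 0.160, 0.350 and 0.191 CPM in PD30, so that its levels were low wherever PD0332991 was given.

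Interferon and cytokine genes changed in both directions. In the interferon list 9 of 38 tested members were higher (23.7%) and 6 lower (15.8%), with a median of 0.03. Neither share was above that of all genes, 24.3% and 24.7%. Higher members numbered 5 without Nutlin replicate 1 or 2 and 4 without N+PD30 replicate 2. OAS3, a sensor of double-stranded RNA, was at 86.03, 84.9 and 92.9 CPM in Nutlin and 31.9, 28.1 and 31.3 CPM in N+PD30 (-1.54 ± 0.12, adjusted p = 3.5e-06 in edgeR), and IFI44 and MX2 fell by 1.77 and 1.95. IFIT2, which binds foreign RNA, was at 1.89, 1.53 and 2.31 CPM and 4.80, 4.73 and 4.90 CPM (1.32 ± 0.22, adjusted p = 0.00058 in edgeR). In the cytokine list 10 of 22 tested members, out of 30, were higher (45.5%) and 4 lower (18.2%), with a median of 0.23. Higher members were 6 and 5 without Nutlin replicates 1 and 2, lower members were 7 without Nutlin replicate 2, and the median was -0.04 without N+PD30 replicate 3. The adhesion molecule ICAM1 was at 149.7, 173 and 178 CPM and 624, 459 and 397 CPM (1.56 ± 0.17, adjusted p = 4.25e-05 in edgeR) and IL6 rose by 1.44 ± 0.29. IL1B was at 9.79, 7.05 and 8.68 CPM and 2.73, 0.823 and 1.30 CPM (-2.54 ± 0.35, adjusted p = 0.00019 in edgeR), and IL8 fell by 1.62.

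Among the AP-1, EGR and ERK feedback genes 7 of 27 tested members rose (25.9%) and 5 fell (18.5%), against 24.3% and 24.7% of all genes. Without Nutlin replicate 3 or N+PD30 replicate 1, 3 were lower. JUND, an AP-1 subunit, was at 3.33, 5.62 and 4.36 CPM in Nutlin and 25.3, 25.6 and 21.1 CPM in N+PD30 (2.43 ± 0.20, adjusted p = 6.38e-06 in edgeR), JUNB rose by 1.25 ± 0.27, and MYADM, a membrane protein, by 1.28 ± 0.13. FOSB, which pairs with JUN proteins, fell by 1.29, from 6.63, 9.75 and 14.8 CPM to 2.57, 3.67 and 6.34 CPM. In PD30 against DMSO 4 members were higher and 9 lower, and the interaction term was positive for 12 of 27 members and negative for none, against 12.8% and 7.03% of all genes.

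Among matrix glycoproteins, proteases and integrins 19 of 58 tested members were lower and 8 higher (median -0.20), among collagens 8 of 28 and 3 (median -0.25), and in the Notch, WNT, BMP and TGF-beta list 15 of 47 and 3 (median -0.22). The shares of lower genes were 32.8%, 28.6% and 31.9%, set against 24.7% of all genes tested. The counts moved with single libraries. Matrix members higher were 4 without Nutlin replicate 2 and 5 without N+PD30 replicate 2. Collagens had 0 to 3 higher and 5 to 9 lower members, with 5 lower without Nutlin replicate 3 or N+PD30 replicate 2. The Notch, WNT, BMP and TGF-beta list had 9 higher members and a median of -0.03 without N+PD30 replicate 3, and a median of -0.06 without Nutlin replicate 3. The median in N+PD30 replicates 1, 2 and 3 was 0.06, -0.26 and -0.38 for the matrix list, so that only replicates 2 and 3 were below the Nutlin mean. The other medians were close to that of all genes, for axon guidance genes (median -0.08), genes of the primary cilium (0.12), of DNA methylation and Polycomb (-0.01) and of aminoacyl-tRNA synthetases (0.16). Shares of lower genes were nevertheless similar in 2 of these lists. Axon guidance had 16 of 48 lower (33.3%) and 10 higher, and DNA methylation and Polycomb 8 of 25 lower (32%) and 7 higher. In the latter the interaction term was positive for 10 of 25 members and negative for 0, against 12.8% and 7.03% of all genes.

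The largest rises outside the cell cycle list, among genes with a mean of at least 100 reads in the higher group, were led by FABP3, a carrier of fatty acids. FABP3 (chr1:31838100-31849697, minus strand, GRCh37) was at 1.24, 1.53 and 1.79 CPM in Nutlin and 18.04, 39.1 and 43.1 CPM in N+PD30 (4.46 ± 0.33, adjusted p = 2.37e-06 in edgeR). Of the 12 genes, MVD, DHCR7, TRIB3, CHAC1 and TSC22D3 are described above. SLCO4C1, an organic anion transporter, was at 0.412, 0.463 and 0.745 CPM and 1.41, 9.32 and 8.84 CPM (3.63 ± 0.58, adjusted p = 0.000485 in edgeR), and PRUNE2 at 44.7, 39.4 and 34.98 CPM and 175, 455 and 488 CPM (3.22 ± 0.32, adjusted p = 2.32e-05 in edgeR). In FABP3, SLCO4C1 and PRUNE2 replicate 1 was again the lowest N+PD30 library. The groups do not overlap in any of the 12 genes, since the rule that picked them required it.

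ADM2, a peptide hormone of the calcitonin family, was at 2.51, 2.53 and 3.13 CPM in Nutlin and 15.2, 26.3 and 26.5 CPM in N+PD30 (3.06 ± 0.24, adjusted p = 3.53e-06 in edgeR). C12orf68 was at 4.50, 3.84 and 2.98 CPM and 36.1, 38.98 and 22.5 CPM (3.09 ± 0.24, adjusted p = 3.89e-06 in edgeR). Its DMSO level was 35.3, 29.7 and 16.3 CPM and its PD30 level 34.8, 43.9 and 25.9 CPM, so that only the Nutlin libraries were low. LURAP1L and the hair keratin-associated KRTAP1-5 rose by 2.98 ± 0.22 and 2.81 ± 0.38.

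Many of the largest falls were genes that are low in DMSO and detected with Nutlin. TRIM55, a ligase of muscle sarcomeres, was at 0, 0.0346 and 0.0627 CPM in DMSO, 16.9, 20.5 and 12.4 CPM in Nutlin and 0.166, 0.309 and 0.240 CPM in N+PD30 (-6.00 ± 0.31, adjusted p = 1.41e-07 in edgeR). KRT78, a keratin, was at 0.0300, 0.0692 and 0.157 CPM in DMSO, 11.02, 9.43 and 7.15 CPM in Nutlin and 0.497, 0.206 and 0.336 CPM in N+PD30 (-4.87 ± 0.32, adjusted p = 1.05e-06 in edgeR). SHISA7, ZNF300P1 and FBXW10 were of the same kind, with fold changes of -4.86, -5.21 and -5.00. In all 5 the highest N+PD30 library was below 1 CPM and the lowest Nutlin library above 3 CPM.

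LAD1, an anchoring filament protein, and ZNF605, a zinc finger protein, had almost no reads in N+PD30. LAD1 had 326 reads in the 3 Nutlin libraries together and 2 in N+PD30, a ratio of 121 after scaling (exact 95% interval 33.3 to 1004, counting error only). ZNF605 had 482 and 3 reads, a ratio of 119 (40.6 to 581), and its 3 reads were all in replicate 2. Fitted fold changes of these 2 genes depend on the prior count and are not given as sizes.

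The remaining large falls were in genes that DMSO cells express. APOBEC3B, a cytidine deaminase of DNA, was at 27.4, 23.02 and 24.9 CPM in DMSO, 36.2, 34.3 and 35.3 CPM in Nutlin and 0.828, 0.960 and 0.625 CPM in N+PD30 (-5.44 ± 0.20, adjusted p = 2.04e-08 in edgeR). FAM111B, a protease, was at 99.3, 99.5 and 111.8 CPM in DMSO, 6.70, 5.09 and 7.30 CPM in Nutlin and 0.248, 0.0343 and 0.240 CPM in N+PD30, so that it fell by 5.39 (log2 -4.68 without N+PD30 replicate 2). The uncharacterised LOC100128191 fell by 6.54 (log2 -5.89 without N+PD30 replicate 2 and -7.13 without replicate 3), and TP73, described above, by 4.68 (log2 -5.39 without N+PD30 replicate 3). C11orf82, also called DDIAS, which protects cells from apoptosis after DNA damage, fell by 4.49. APOBEC3B, FAM111B and C11orf82 were also low in PD30 without Nutlin, where their libraries were at 1.66, 1.62 and 0.957 CPM, 0.256, 0.270 and 0.164 CPM and 0.800, 0.593 and 0.820 CPM.

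**Figure D3:**
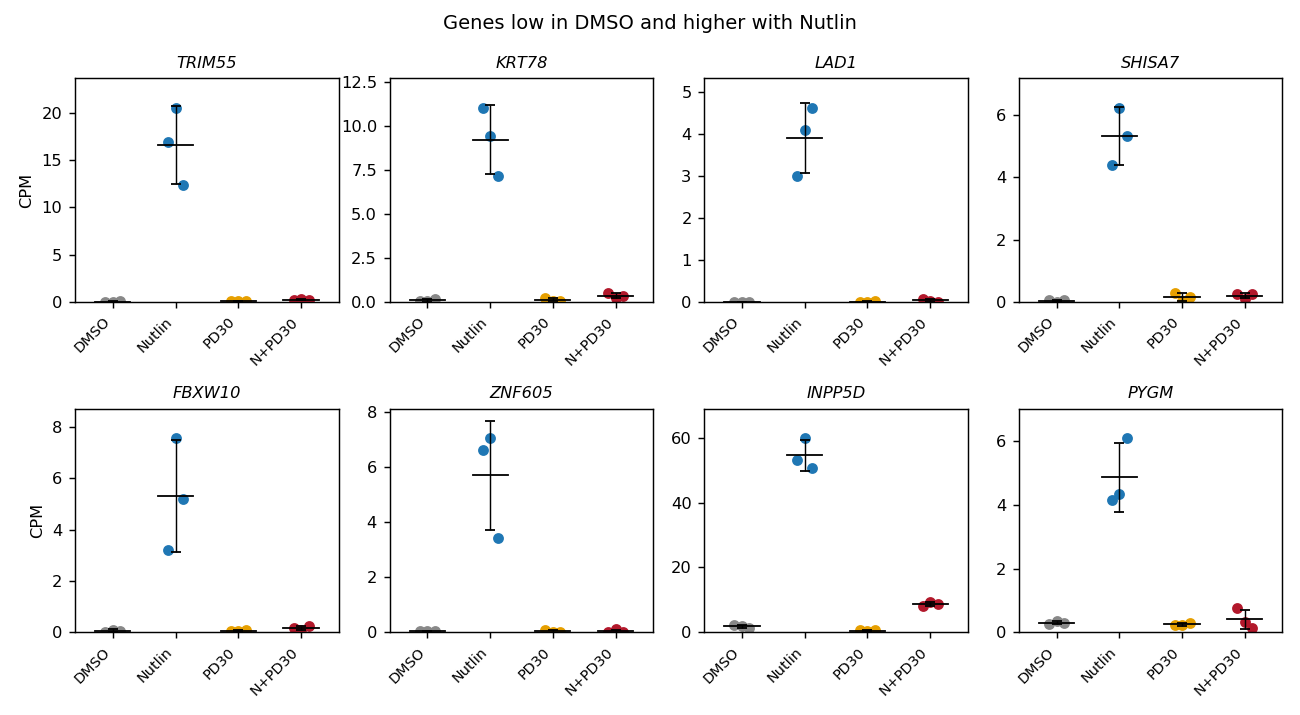
CPM (y axes, from 0) of 8 genes in the 4 groups (x axes), 1 point per library, with the mean as a line and the SD as error bars (n = 3). In each the Nutlin libraries are the highest, and in all but INPP5D the N+PD30 libraries lie below 1 CPM.

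The same lists were set beside their values without Nutlin. PD30 against DMSO shares no library with N+PD30 against Nutlin, and in it 15125 genes were tested, of which 871 (5.76%) were higher and 1434 (9.48%) lower past both thresholds. Outside the cell cycle list 3462 (23.5%) of 14725 were higher and 3471 (23.6%) lower, with 869 (5.90%) and 1084 (7.36%) past 2-fold. Cholesterol synthesis had 20 members higher and 1 lower, with a median of 1.87 against 1.83 with Nutlin, and no member had an interaction term past the threshold. The medians without and with Nutlin were 0.52 and 0.72 for fatty acid synthesis, 0.63 and 0.49 for lysosomal genes, and 0.70 and 0.56 for the vacuolar ATPase. They were 0.18 and 0.67 for ATF4-type genes and -0.28 and -0.59 for chaperones. MVD, for example, was at 20.9, 17.8 and 13.3 CPM in DMSO and 91.3, 116 and 139 CPM in PD30 (log2 2.77, adjusted p = 2.34e-06 in edgeR). Over all genes, 16113 were tested for the interaction, and the term was past an adjusted p of 0.05 in 2060 (12.8%) with a positive and 1133 (7.03%) with a negative sign.

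**Figure D4:**
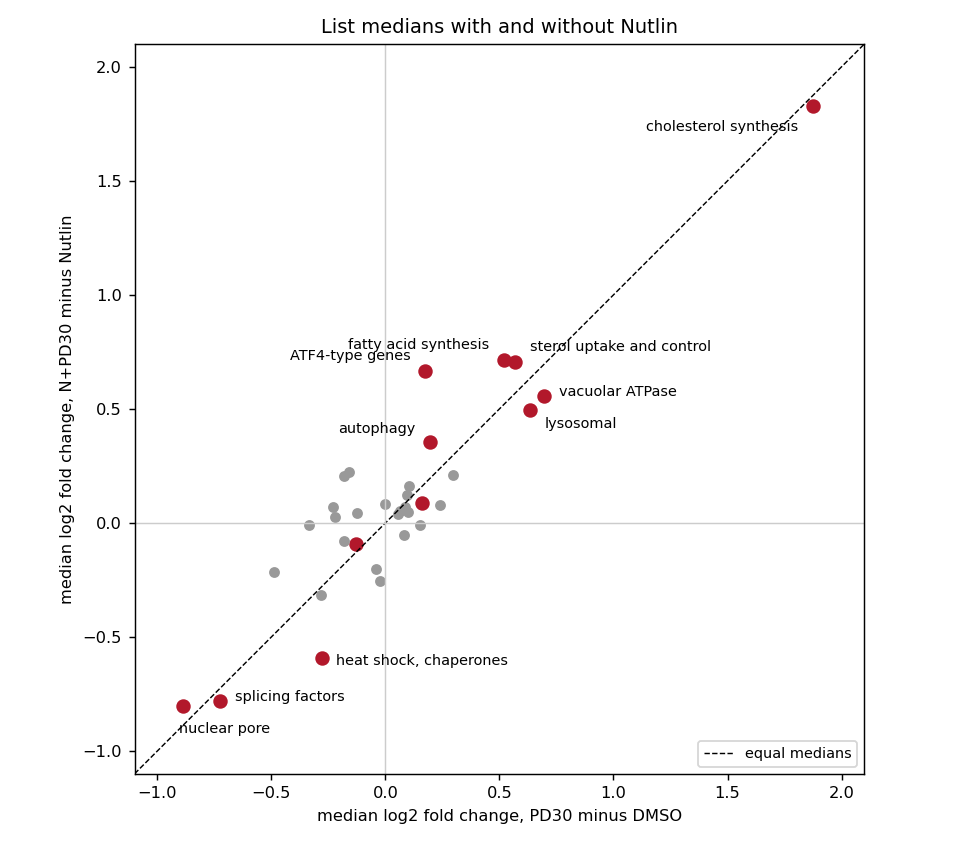
Median log2 fold change of each of the 34 gene lists in PD30 against DMSO (x axis) and in N+PD30 against Nutlin (y axis), which share no library. Red points are the lists described in most detail, grey points the others, and the dashed line marks equal medians. Cholesterol synthesis lies near the line, ATF4-type genes lie above it (0.18 and 0.67) and chaperones below it (-0.28 and -0.59).

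The authors counted reads with the reverse-strand setting of HTSeq, while the sources used here do not say that the library kit keeps the strand. Where it does not, reads of a gene cannot be told apart from those of a gene on the opposite strand. Such partners in the annotation were IFT20 for TMEM97, GGT7 for ACSS2, FADS1 for FADS2, MARS1 and MBD6 for DDIT3, DGAT1 for HSF1, SLC26A1 for IDUA and PRCP for C11orf82. Others were RAI1 for SREBF1, CARD14 and SLC26A11 for SGSH, ARSG for WIPI1, NCOA6 for TP53INP2, CCDC24 for SLC6A9, FAM217B for PPP1R3D, GCNT1 for PRUNE2, SBF1 for ADM2, LIPA for IFIT2, WRAP73 for TP73, HOOK2 for JUNB and ERCC1 for FOSB. Further partners were AGPS and HNRNPA3 for NFE2L2, MGAT4B and MRNIP for SQSTM1, STEAP1B for IL6 and NCBP2L for TSC22D3. The partners given here are not a complete set, and their part in the values was not tested.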

How the data were processed

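RNA from SJSA-1 cells was sequenced from 6 groups of 3 libraries, described as triplicates, so p-values measure the spread between these samples. The authors deposited raw read counts per gene, although their tables are named for transformed values. Per the submitters' processing notes, TopHat, Bowtie2, HTSeq 0.6.0, DESeq2 and hg19 were used. The authors' table of fold changes and p-values for Nutlin against DMSO and their tables of size-factor scaled values per library were not used.

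Counts were fitted with edgeR 4.0.16 (R 4.3.3) by its quasi-likelihood test with TMM factors, filterByExpr and Benjamini-Hochberg adjustment over all genes tested, in the 6 libraries for fold changes and in 12 libraries for CPM levels and the interaction (N+PD30 minus Nutlin, minus PD30 minus DMSO). Calls needed an adjusted p under 0.05, and, where stated, more than a 2-fold change. The steps were tested on simulated data. Alternatives used other scaling, DESeq2 1.42.0, limma 3.58.1, other filters, thinned counts, a replicate block and leaving out each library.

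Members and lists were chosen with earlier results of these data known. Named genes were anchors of each pathway, up to 3 members per list and direction with the largest changes past both thresholds and no overlap between groups, and the 12 largest rises and falls outside the cell cycle list with a mean of at least 100 counts in the higher group. Of 23368 rows, 28 carried dates in place of gene names, and 94.1% matched RefSeq symbols. Promoter sequences came from RefSeq windows on GRCh38.p14, and motifs were searched on both strands. Totals ranged from 12704845 to 30515707 counts, and intervals cover counting error only. Some genes of the lists are not reported here by name.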

Additional observations from a re-analysis of the deposited data

Results flagged for a closer look

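Of 114 named genes, 104 were tested both with and without Nutlin, and 24 of them (23.1%) had a change with PD0332991 that differed between the 2 settings by the interaction term in edgeR over 12 libraries, 21 with a positive and 3 with a negative term. Over all genes the shares were 12.8% positive and 7.03% negative, and the named genes were chosen in large part by the size of their change with Nutlin, which is 1 side of the term. The other 10 genes had too few reads in DMSO and PD30, and no term is given for them. The log2 terms are N+PD30 minus Nutlin, less PD30 minus DMSO.

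Stress genes with a positive term were ATF4 (1.37), DDIT3 (1.03), TRIB3 (2.83), HERPUD1 (0.49), XBP1 (0.61), HSF1 (0.77), HMOX1 (0.86) and ADM2 (1.51) (adjusted p from 0.00109 to 0.0447 in edgeR). Genes of glucose and glycogen use with a positive term were PDK4 (1.60), TXNIP (1.61), PPP1R3C (1.03) and PPP1R3D (1.54) (adjusted p from 0.000932 to 0.0342 in edgeR). In PDK4, a kinase that restrains pyruvate use, the term came with a log2 difference of -1.79 without Nutlin and -0.23 with it. The other positive terms were in PANK1 (0.91), IFIT2 (1.20), JUND (1.85), JUNB (1.81), MYADM (0.69), BHLHE40 (1.01), C12orf68 (2.74), LURAP1L (1.43) and FAM111B (3.40) (adjusted p from 0.000693 to 0.0493 in edgeR). FAM111B was lower with PD0332991 in both comparisons, by more without Nutlin (log2 -8.77) than with it (-5.39). It was under 1 CPM in all 6 libraries given PD0332991, so these sizes and the term rest on few reads there.

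Negative terms were found in HSPA1L (-2.16), MX2 (-0.88) and APOBEC3B (-1.28) (adjusted p from 0.00356 to 0.0467 in edgeR).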

How the results depend on the processing

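The number of genes called lower fell from 2184 to 1330, and outside the cell cycle list from 1854 to 1012, with a mean count of at least 50, by construction since fewer genes were tested. Among called genes, 62.2% were lower, against 50.4% with quantile normalization and 67.1% with upper-quartile factors. Members of the ATF4-type list that fell (2) numbered 6 with upper-quartile factors, quantile normalization and the count filter and 1 with total counts. The vacuolar ATPase had 1 lower member with upper-quartile factors and the count filter. Autophagy had 2 lower members in place of 1 under 6 settings (upper-quartile factors, TMM outside the cell cycle list, quantile normalization, DESeq2, the count filter and thinned counts). Nuclear pore genes had 1 higher member in place of 2 under the same settings with DESeq2 replaced by the replicate block, and their median was -0.868 with upper-quartile factors and -0.861 with the count filter. The lysosomal median was 0.417 with the count filter. The median of the p53 list was -0.160, -0.0550, -0.0644 and -0.132 with upper-quartile factors, total counts, quantile normalization and the count filter. The cause of these shifts was not tested.

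With 1 library left out, genes called higher were 1223 to 1480 and lower 2079 to 2345, the sterol control median was 0.562 to 0.800, members that fell were 1 to 3 (ATF4 type), 2 to 8 (unfolded protein response) and 0 to 2 (autophagy), higher nuclear pore members were 1 to 2, and the p53 median was -0.147 to -0.0755. Of 105 named genes past the threshold, CSF2, DUSP2, SREBF1 and TFEB lost it under at least 1 alternative and the others under none. After group means were subtracted, same-numbered Nutlin and N+PD30 libraries correlated with r of -0.039, 0.137 and 0.212. Different-numbered ones correlated with r from -0.279 to 0.169. The main test did not pair the samples. Single genes did follow the replicate number, such as COL1A2, picked after its values were seen. In replicates 1 to 3 it was at 578, 408 and 253 CPM in DMSO and 644, 460 and 330 CPM in Nutlin. It was at 377, 356 and 214 CPM in PD30 and 607, 378 and 225 CPM in N+PD30. A shared replicate effect was not tested. With the replicate block 1328 genes were higher and 2184 lower past both thresholds, and SREBF1 was no longer called (adjusted p = 0.0512 in edgeR). Depth limits genes with few reads, most of all in N+PD30 replicate 1.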
